A study of Mus musculus with 6 samples.

Results

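Of 214 piRNA genes with reads in the deposited libraries, 9 held reads assigned to a tRNA, and 3 with pileups of nuclear tRNA sequence are described here: 9-qC-10667, 15-qD1-4001 and pi-D10Wsu102e. They were selected on their tRNA reads in these libraries, so the tRNA content is a description and was not tested. A read was kept where every place it mapped to lay in 1 piRNA gene, and its copies were counted once per sequence and library. On that count the loci held 126, 272 and 1071 distinct sequences, in the order given, of 19147 in all. The study sequenced small RNAs of purified male mouse primordial germ cells at E13.5, in 3 libraries of cells given ionizing radiation (IR) and 3 of untreated cells (control). The sources used here give no strain, genotype, radiation dose, time after radiation or origin of the replicates, so p-values measure the spread between libraries, which may be technical.

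piRNAs are small RNAs that guide PIWI proteins in germ cells, where they silence transposons, and they are cut from long transcripts of genomic regions called piRNA clusters. tRNAs are folded adapters of translation. Their 3′ end carries the bases CCA, which an enzyme adds after transcription and which mouse tRNA genes do not encode. Cells also hold shorter tRNA pieces, among them pieces from the T loop to the CCA end, and retroviral elements carry a primer-binding site that pairs with the 3′ end of a tRNA, CCA included.

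The files hold small libraries, with 7788 to 11280 reads on cluster transcripts and 5889 to 9017 reads of 1 piRNA gene. The 3 loci held 448, 443 and 623 of the latter in the controls (5.72%, 6.91% and 7.46%) and 387, 425 and 264 in the IR libraries (4.29%, 4.85% and 4.48%). Reads were 20 nt or longer, and reads off the clusters were not analysed here, so germ cell marker genes could not be checked. No read with the sequences named below lay in more than 1 piRNA gene. A read of a tRNA and a transcript of the cluster itself cannot be told apart by place alone.

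The pileups came from 5 sequence families, each named for the tRNA it resembles. The leading reads are shown 5′ to 3′ with T for U, since all that follows turns on where they start and end. Capitals mark the 12 bases by which a read was assigned to its family.
Gly-a, leading read of 9-qC-10667: tcgattcCCGGCCAACGCAcca
Gly-b, 9-qC-10667: tcgattcCCGGCCCATGCAcca
Lys, leading read of 15-qD1-4001: tctGAGGGTCCAGGGttcaagt
Pro, leading read of pi-D10Wsu102e: tcagatcCCGGACGAGCCCcca
Ile, pi-D10Wsu102e: tccCCGTACGGGCCAccatt
The Gly-a, Gly-b, Pro and Ile reads run from the T loop through the last stem to CCA. The Lys read lies inside the tRNA, from the end of the anticodon loop to the T loop. Isotype names rest on general knowledge of tRNA sequences, because only 13 of the 430 tRNA genes listed by RefSeq were covered by the reference sequence used. Among those 13, the closest gene to the 18 compared bases of Pro was the proline tRNA n-TPtgg2, with 2 mismatches, and the next gene had 7. For Gly-a the closest was the glycine tRNA n-TGccc7, with 3 mismatches against 6 for the next. For Gly-b it was the same gene, with 4 against 5. For Ile and Lys the closest covered genes were of other isotypes: n-TGccc7 for Ile, with 5 mismatches over 15 bases, and the proline and arginine tRNAs n-TPtgg2 and n-TRtct2 for Lys, with 7 each over 22. The comparison gives those 2 names no support.

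At 9-qC-10667 the tRNA reads made up most of the locus. Of its 926 reads, 751 (81.1%) had tRNA sequence, and they were copies of 18 sequences, so each sequence was read 41.7 times on average. The other 175 reads comprised 108 sequences, 1.62 reads each. All 751 tRNA reads lay on the plus strand at 1 place, bases 19745 to 19766 of the cluster transcript for the leading read. The transcript could be placed on mm10 by its reads within annotated exons, which puts that read at chr9:67753689-67753710, outside annotated exons. That placing rests on 19 distinct reads, all within 2 mismatches of the genome.

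Gly-a gave 608 reads and Gly-b 143, and both forms started and ended at the same bases. The reads began 22 bases before the end of CCA in 578 of 608 Gly-a reads and in 138 of 143 Gly-b reads. The complete CCA was present at the end of 482 Gly-a and 123 Gly-b reads, and 121 and 17 reads stopped 1 base earlier, after CC. Counted from 1 at the start of the leading Gly-a read, Gly-b differs from it by A14C and C16T. The T loop of many tRNAs carries a methyl group on the adenosine at position 58, at which reverse transcriptases can stop or read another base. At that position all 590 Gly-a and 138 Gly-b reads that began 21 or more bases from the end had A. Of the shorter reads that began exactly 20 bases from the end, 7 of 13 Gly-a and 3 of 3 Gly-b reads had T. Outside both forms, 1 read began at the same base as the leading Gly-a read and had T there too. These counts cover only reads that could be placed on a cluster transcript. The genome also encodes the Gly-a bases followed by CCA, as described below. At the places in Gm29371, Gm48377, Platr15 and Gm20400 it has T at position 58, and at that in Gm12505 it has A. The base at the encoded Gly-b end was not read. Whether the T came from a methylated tRNA or from a transcript of such a place was not tested.

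A further 15 reads of 7 sequences overlapped the Gly place on the same strand without the 12 bases of either form, and were counted with the other reads. Capitals mark the bases that differ from Gly-a in the leading one, shown because it is another form of the same end.
Further Gly-like form, 9 reads: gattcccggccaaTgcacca
It differs by C16T alone and begins 20 bases from the end. No read of any gene continued it 2 bases further to the start used by Gly-a and Gly-b. The files hold only reads placed on cluster transcripts, so a longer form that was not placed would not be seen.

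The other reads of 9-qC-10667, with those 15 among them, were more dispersed. They were found in 26 of the 27 bins of 1 kb along the locus, and 70.3% lay on the plus strand. That share includes the 15 reads and the second pileup given below. Their median length was 21 nt, and 20.6% were 24 to 32 nt long, the size range of piRNAs. No tRNA read of the locus had such a length, and 96.3% of them were 21 or 22 nt. Among the other reads 64 formed a second pileup at bases 264 to 286, in 7 sequences, with 6, 10 and 13 reads in the controls and 12, 12 and 11 in the IR libraries. Its leading read, with 24 copies, is shown because it is the only sequence without tRNA bases among the 5 most copied of the locus.
Second pileup: tggtgcaatttttggaaaaa
Of the 36 other reads of 24 to 32 nt, 17 began with T, the base that usually opens a piRNA. As many as 12 of those 17 came from control replicate 1.

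15-qD1-4001 was divided more evenly. Its 472 reads comprised 187 Lys reads (39.6%) in 9 sequences and 285 other reads in 263 sequences. The start of the Lys reads was fixed: 185 of 187 began at the same base, and 143 ran for 22 nt from there and 37 for 21 nt. No Lys read reached the CCA end. The main place was bases 26042 to 26065 on the plus strand, with 179 reads, and 11 reads lay at bases 31948 to 31969 on the minus strand. Of these, 3 reads mapped to both places and are in both numbers. The transcript was not placed on mm10 here, so no genome position is given.

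Both Lys places also carried reads that were not Lys. At the main place 12 other reads overlapped, 9 of them on the same strand and 3 on the opposite one. The leading Lys read is shown again beside 1 overlapping read and the Lys read of the second place, because the 3 differ at single bases of the same stretch. Capitals mark the bases that differ from the leading read.
Leading Lys read: tctgagggtccagggttcaagt
Overlapping read, not Lys: ttctgaAggtccagAgttcaagtcct
Lys read of the second place: tctgagggtccagggttcaaAt
Counted from 1 at the start of the leading Lys read, that read differs from the overlapping one by A6G and A14G, and the read of the second place differs from it by G21A. The 12 bases that define Lys occur on either strand in 101 of 141767 GENCODE transcripts. The matching 12 bases of the overlapping read occur in 273. How many transcripts would hold any given 12 bases was not computed. The other reads of 15-qD1-4001 were 43.9% plus strand with a median of 27 nt, 32.3% were 24 to 32 nt long, and 39 of those 92 began with T.

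pi-D10Wsu102e had the fewest tRNA reads. They were 88 of 1192 (7.38%), in 44 sequences, while the other 1104 reads comprised 1027 sequences. Its transcript lay on mm10 in annotated exons of the gene D10Wsu102e (chr10:83360221-83488505, plus strand). The last exon of that gene spans 122802 nt and is 3′ UTR beyond base 83365919, where all tRNA reads of the locus lay. Pro gave 40 reads at bases 60361 to 60385. Ile gave 48 reads, at bases 75409 to 75431 and at bases 79479 to 79504, with 19 and 47 reads and 18 of them at both. The tRNA reads were all on the plus strand, the strand of the host gene, where only 28.5% of the other reads lay. No other read overlapped any of the 3 places.

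The Pro and Ile reads seldom matched the genome exactly where the files put them. The 937 distinct reads with 1 mapped place all lay within 2 mismatches of mm10, and no read of several places that was compared had more. Of the other reads compared, 307 of 1092 (28.1%) matched without a mismatch, against 1 of 48 Ile reads (2.08%) and 0 of 40 Pro reads. Pro reads had 2 mismatches in 39 of 40 cases. Leading reads of both families are shown with the genome at their place, to show where they differ from it, before CCA or after it. Capitals mark the differing bases.
Pro read, 10 copies: TcagatccCggacgagccccca
mm10, chr10:83425707-83425728: GcagatccTggacgagccccca
Pro read, 8 copies: tccCggacgagcccccaGct
mm10, chr10:83425712-83425731: tccTggacgagcccccaAct
Ile read, 8 copies: tccccgtaCgggccaccatt
mm10, chr10:83440755-83440774: tccccgtaTgggccaccatt
Ile read, 5 copies: tccccgtacgggccaccaGCt
mm10, chr10:83444829-83444849: tccccgtacgggccaccaCTt
The bases CCA themselves are in the genome at all 3 places. In the first pair the differences are G1T and T9C, with the genome base first and positions counted from the start of the read, and in the first Ile pair T9C.

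**Figure D1:**
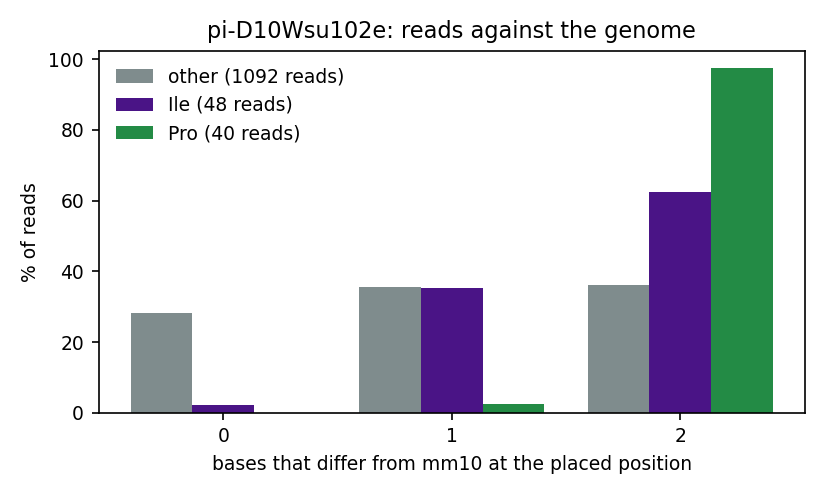
Percentage of reads (vertical axis) with 0, 1 or 2 bases that differ from mm10 (horizontal axis) at pi-D10Wsu102e, for the Pro, Ile and other reads of the 6 libraries together. Other reads are divided among the 3 classes, whereas 39 of 40 Pro reads and 30 of 48 Ile reads differ at 2 bases. Pro reads cannot have 0, because the bases that assign them differ from mm10 there.

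The ends of the Pro and Ile reads were more varied than those of the Gly reads. Bases beyond CCA followed in 23 of 40 Pro reads (57.5%), with 11 different endings of 2 or 3 bases. They followed in 39 of 48 Ile reads (81.2%), with 23 different endings of 2 to 5 bases. Of Gly-a and Gly-b only 5 of 608 (0.822%) and 2 of 143 (1.40%) had any. Such an ending can match the genome, as the last 2 bases of the first Ile read above do at the place shown. The bases beyond CCA went with where the read began. In all 4 families every read with them began under 20 bases from the end of CCA, and no read that began 20 or more bases away had any, over 603 Gly-a, 141 Gly-b, 17 Pro and 8 Ile reads. The shortest read in the files is 20 nt, so a read that begins under 20 bases from the CCA end can appear in them only with bases beyond CCA. The base at position 58 was G in 10 of 17 Pro reads and A in 7, and the genome has G at that place, as in the first pair above. Since no compared read of this locus had over 2 mismatches, these shares describe the reads that could be placed and not the tRNA fragments of the cells.

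**Figure D2:**
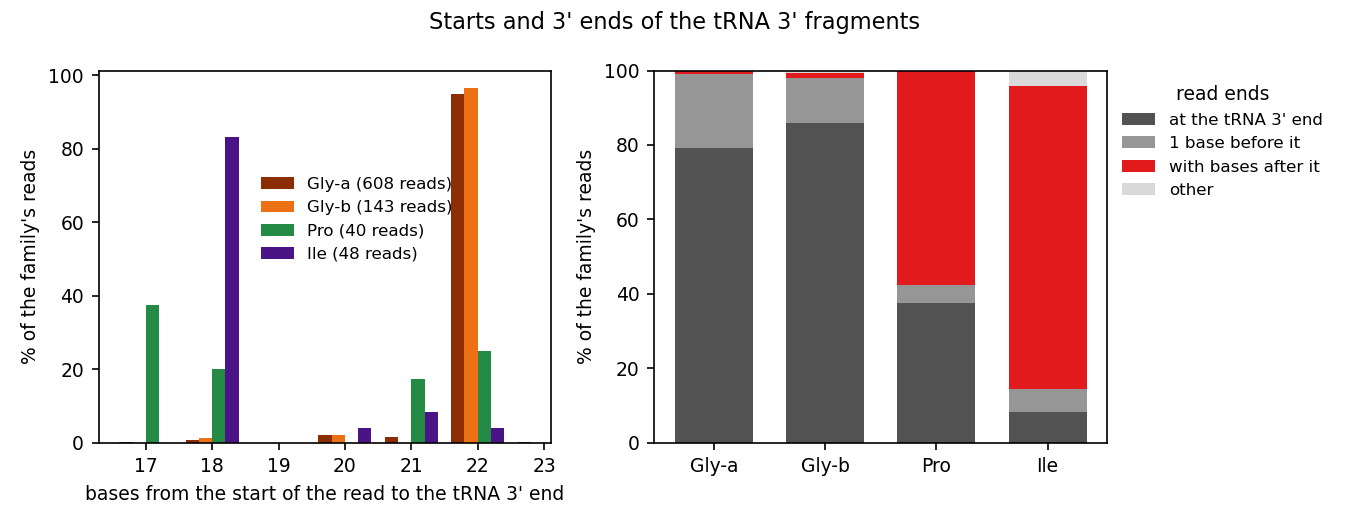
Left, percentage of each family's reads (vertical axis) by the number of bases from the read's start to the end of CCA, the tRNA 3′ end (horizontal axis), and right, percentage by where the read ends, over the 6 libraries together. Gly reads start 22 bases from the end and stop at CCA or CC, whereas 40 of 48 Ile reads start 18 bases from it and 39 carry bases after CCA.

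The same 3′ ends are also encoded in the genome. Among annotated exons and promoter windows of mm10, the 12 bases of Gly-a followed by CCA were found at 5 places, those of Gly-b at 1, those of Pro at 2 and those of Ile at 14, of which 1 is the second Ile place of pi-D10Wsu102e. All 5 Gly-a places continued with the same 9 bases after CCA, and 9 of the 12 Ile windows that were read shared another 9. Of the 2 Pro places, 1 continued with the 9 bases of Gly-a. The other, opposite to an exon of the lincRNA Gm26917, continued with different bases. These shared bases are shown in 1 window each for Gly-a, Pro and Ile, with the family's bases and CCA in capitals.
Gly-a, chr2:150706718-150706747, opposite to an exon of the lincRNA Platr15: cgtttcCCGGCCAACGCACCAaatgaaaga
Pro, chrX:31347744-31347773, exon of the pseudogene Gm15280: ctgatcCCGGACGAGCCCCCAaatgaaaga
Ile, chr12:19560182-19560211, opposite to an exon of the lincRNA Gm49371: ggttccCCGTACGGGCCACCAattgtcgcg
The files place no read with the bases of these families outside the 3 loci. Whether a given read came from a tRNA or from a transcript of such a window was not tested.

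**Figure D3:**
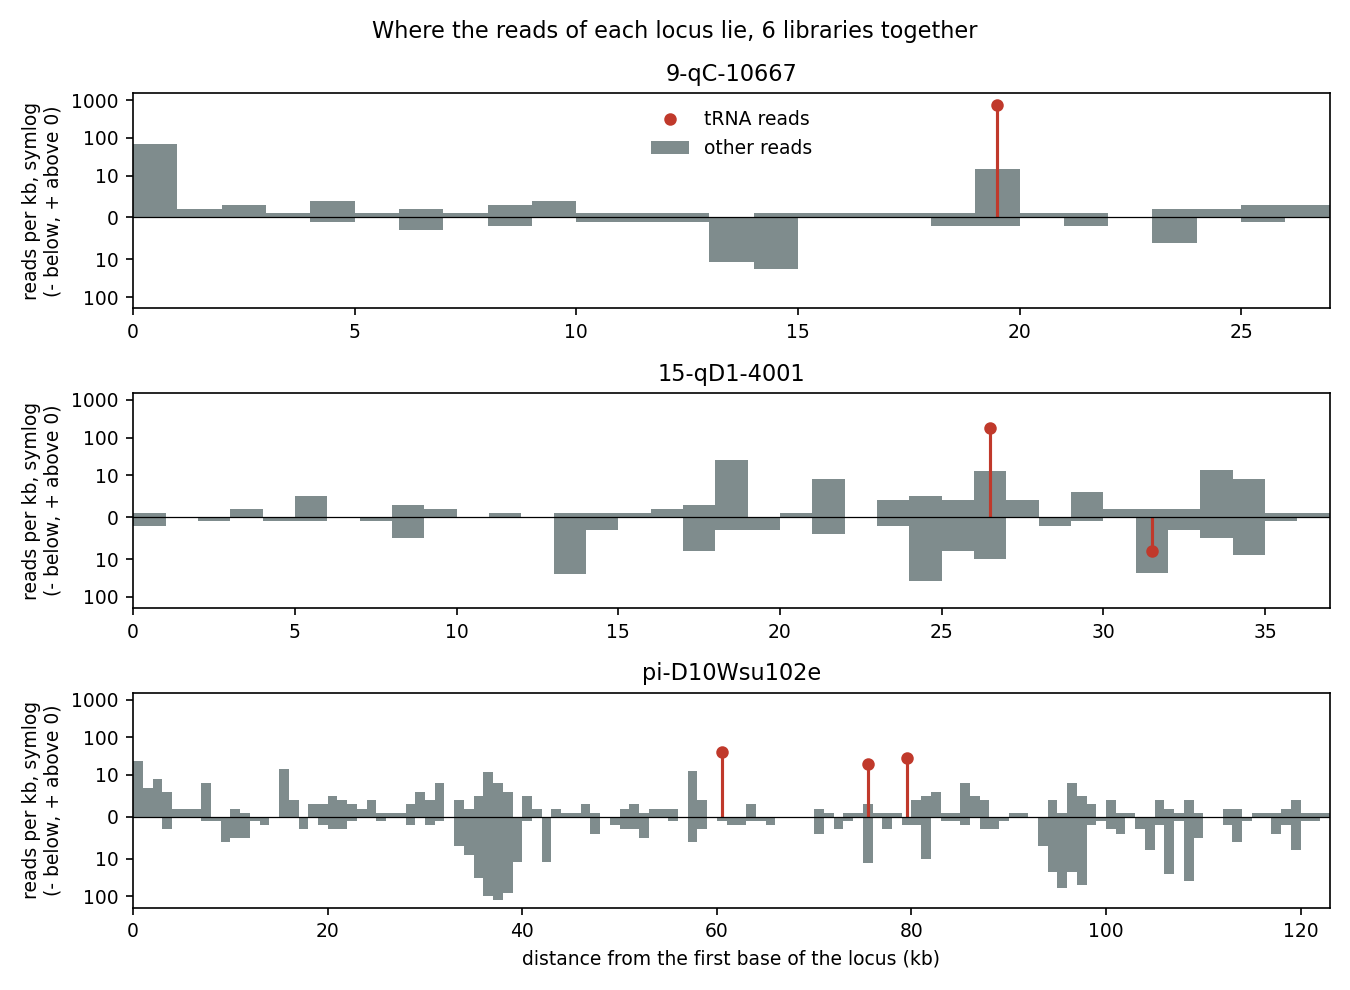
Reads per kb along the longest transcript of each locus (horizontal axis, kb from its first base; vertical axis on a symmetric log scale, plus strand above 0 and minus strand below), over the 6 libraries together. Red points are tRNA reads, which stand at 1, 2 and 3 bins of 1 kb, and grey bars are other reads, found in 26, 32 and 111 bins.

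Read length also differed between the sources. Reads of 21 or 22 nt were 96.3% of the tRNA reads of 9-qC-10667, 97.3% of those of 15-qD1-4001 and 43.2% of those of pi-D10Wsu102e, where 49 of 88 were 20 nt. Among other reads the share of 21 or 22 nt was 26.9%, 14.4% and 16.8%. A single tRNA read of the 3 loci, at 15-qD1-4001, was 24 to 32 nt long, against 36, 92 and 409 other reads. First T opened 96.5% of the tRNA reads of 9-qC-10667 and 99.5% of those of 15-qD1-4001, which follows from their fixed start. Among other reads of 24 to 32 nt first T stood at 47.2%, 42.4% and 31.1%, beside 33.6% of 16276 such reads at all other piRNA genes.

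**Figure D4:**
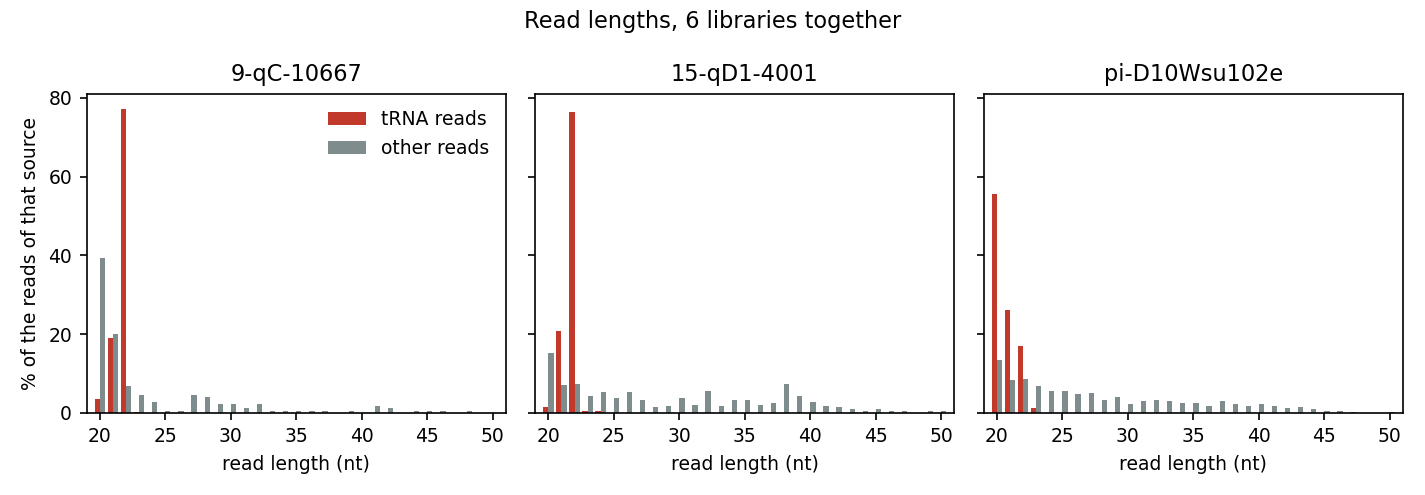
Read length in nt (horizontal axis) against the percentage of reads of each source (vertical axis) at each locus, over the 6 libraries together. tRNA reads (red) peak at 22 nt at 9-qC-10667 and 15-qD1-4001 and at 20 nt at pi-D10Wsu102e, and other reads (grey) reach 48, 50 and 50 nt.

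The next question is whether the reads of these loci differed between IR and control libraries. Counts per locus, tested with edgeR's quasi-likelihood test over all tested loci, were lower in the IR libraries at 9-qC-10667 and 15-qD1-4001. 9-qC-10667 had 176, 182 and 216 reads in the controls and 138, 128 and 86 in the IR libraries. In CPM, reads scaled to the size of the library, it had 28178 ± 4902 (SD, n = 3) and 15247 ± 801, and the groups did not overlap. That is a log2 change of -0.88 ± 0.21 (SE), with an adjusted p of 0.0198 by edgeR and Benjamini-Hochberg. 15-qD1-4001 had 87, 82 and 129 reads against 70, 61 and 43, or 14411 ± 2676 and 7547 ± 592 CPM, again without overlap (log2 fold change -0.93 ± 0.23, adjusted p = 0.0198 by edgeR). pi-D10Wsu102e had 185, 179 and 278 against 179, 236 and 135 reads, 31085 ± 5992 and 23816 ± 3206 CPM, and the groups overlapped (-0.38 ± 0.22, adjusted p = 0.284 by edgeR). Thus 2 of the 3 loci passed, where 7.77% of the 103 tested loci did in either direction, 3.88% did as lower in IR, and 24.3% had groups that did not overlap. Both calls were known when the loci were chosen, and both were lost without control replicate 2 (adjusted p = 0.0899 for each by edgeR) and without IR replicate 1 (0.0789) or 2 (0.0635 and 0.0844). That of 15-qD1-4001 was also lost without IR replicate 3 (0.0531), and that of 9-qC-10667 with reads of 1 mapped place (0.0643). With reads of 24 to 32 nt, which leave out nearly all tRNA reads, 15-qD1-4001 had a log2 fold change of 0.0989 (adjusted p = 0.953 by edgeR).

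Each locus was then split into tRNA and other reads in 1 fit. The tRNA reads of 9-qC-10667 fell: they were 146, 165 and 186 in the controls and 102, 93 and 59 in the IR libraries, or 25223 ± 6050 and 10684 ± 919 CPM (SD, n = 3). On the log2 scale the change was -1.23 ± 0.23 (SE), with an adjusted p of 0.00322 by edgeR. The Lys reads of 15-qD1-4001 also fell, from 38, 37 and 76 reads to 15, 14 and 7, or from 7358 ± 2259 to 1490 ± 288 CPM (log2 fold change -2.27 ± 0.32, adjusted p = 4.78e-04 by edgeR). In both, every IR library was below every control library. In that fit 8.41% of the 107 features tested passed, and 4.67% passed as lower in IR. Both tRNA calls held in each of the 12 alternatives in which they could be fitted, with adjusted p up to 0.0341 for 9-qC-10667 and 0.0166 for 15-qD1-4001.

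The other reads of the same loci did not pass. At 9-qC-10667 they were 30, 17 and 30 against 36, 35 and 27 (log2 fold change 0.15 ± 0.26, adjusted p = 0.778 by edgeR). At 15-qD1-4001 they were 49, 45 and 53 against 55, 47 and 36 (-0.32 ± 0.24, adjusted p = 0.419 by edgeR). At pi-D10Wsu102e neither source passed: tRNA reads were 8, 10 and 21 against 12, 28 and 9 (0.10 ± 0.42, adjusted p = 0.901 by edgeR), and other reads 177, 169 and 257 against 167, 208 and 126 (-0.49 ± 0.21, adjusted p = 0.220 by edgeR). Their CPM overlapped at 9-qC-10667. It did not at 15-qD1-4001, with 6721 to 8690 in the controls and 5349 to 6281 in the IR libraries, or for the other reads of pi-D10Wsu102e, with 24279 to 32853 in the controls and 19072 to 23674 in the IR libraries. Of all 107 features of that fit, 27.1% had groups that did not overlap. A miss of the threshold does not show that these reads were level.

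**Figure D5:**
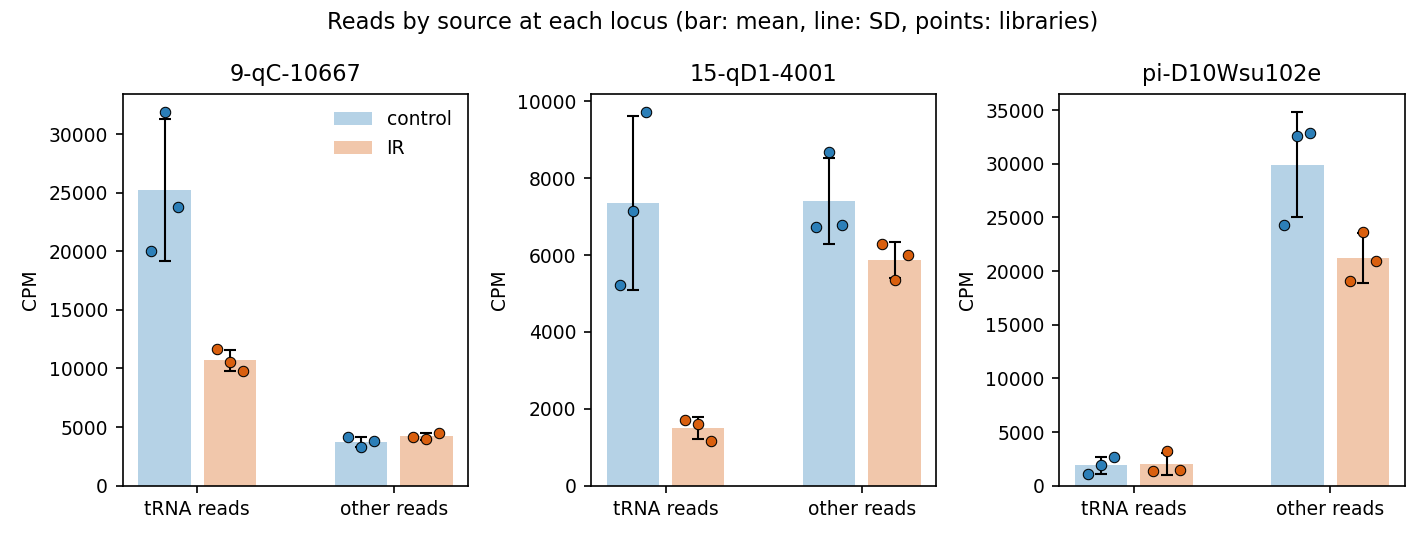
CPM (vertical axis) of tRNA and other reads (horizontal axis) at each locus, with the mean as a bar, the SD as a line and each library as a point, for 3 control and 3 IR libraries. The IR points lie below all control points for the tRNA reads of 9-qC-10667 and 15-qD1-4001, and the groups overlap for the other reads of 9-qC-10667.

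The share of tRNA reads within a locus tests the difference between the sources directly, with 1 value per library. At 9-qC-10667 it was 83.0%, 90.7% and 86.1% in the controls and 73.9%, 72.7% and 68.6% in the IR libraries, a difference of -14.8 percentage points. At 15-qD1-4001 it was 43.7%, 45.1% and 58.9% against 21.4%, 23.0% and 16.3%, a difference of -29.0 points. Neither pair of groups overlapped, and both had an exact two-sided permutation p of 0.1, the smallest that 3 against 3 libraries allow, so no such share can pass 0.05. With each distinct sequence counted once, the difference at 15-qD1-4001 was -1.54 points (exact permutation p = 0.4). At pi-D10Wsu102e the share was 4.32%, 5.59% and 7.55% against 6.70%, 11.9% and 6.67%, and the groups overlapped (exact p = 0.3). Over the 14 such measures of composition the adjusted p was 0.233 or more.

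Split by family, Gly-a had 121, 135 and 157 reads in the controls and 73, 74 and 48 in the IR libraries, with a log2 fold change of -1.32 ± 0.23 (adjusted p = 0.00144, edgeR, in a split added after seeing the data). The planned fit of tRNA families held 5 tested features, among them the pooled other reads of the files, and 1 passed. In it the same Gly-a counts gave -0.83 ± 0.38 and did not pass (adjusted p = 0.0670 by edgeR). Leaving out 1 library there gave -1.11 to -0.22. Gly-a passed in 4 of the 11 alternatives of that fit. Among them were the fit without IR replicate 2 (adjusted p = 0.0386 by edgeR), that with the file totals as library sizes (-1.17, adjusted p = 2.73e-04) and that with no filter (-1.19, adjusted p = 4.83e-07). Gly-b, from the same place, had 25, 30 and 29 against 29, 19 and 11 reads and passed in neither fit. The added split gave -0.75 ± 0.32 (adjusted p = 0.221 by edgeR), and the planned fit -0.31 ± 0.46 (adjusted p = 0.510 by edgeR). Gly-b took 17.1%, 18.2% and 15.6% of the Gly reads in the controls and 28.4%, 20.4% and 18.6% in the IR libraries. These groups did not overlap (exact permutation p = 0.1), but the difference of 5.54 points was 2.57 points without IR replicate 1, and p was 0.2 where 1 mismatch was allowed. Gly-b reads that stop after CC numbered 0, 1 and 1 in the controls and 5, 5 and 5 in the IR libraries, while those of Gly-a numbered 24, 20 and 41 against 8, 13 and 15. This contrast rests on few Gly-b reads and was not tested. Pro had 3, 3 and 13 against 5, 9 and 7 reads and Ile 5, 7 and 8 against 7, 19 and 2, too few to be tested.

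Of single sequences, the leading Lys read shown above fell, from 31, 29 and 56 copies to 10, 7 and 5 (log2 fold change -2.30 ± 0.39, adjusted p = 8.70e-04, edgeR quasi-likelihood). It was 1 of the 7.48% of 107 tested sequences that passed, and 1 of the 1.87% that passed as lower in IR. The leading Gly-a read had 93, 109 and 108 copies against 64, 56 and 30 and did not pass (-1.01 ± 0.36, adjusted p = 0.122 by edgeR). Its form without the last base had 24, 19 and 40 against 8, 13 and 13 (-1.15 ± 0.40, adjusted p = 0.120), and the leading Gly-b read 24, 28 and 27 against 24, 13 and 4 (-0.93 ± 0.39, adjusted p = 0.171 by edgeR). Reads of 22 nt were 84.2%, 83.8% and 75.0% of the Lys reads in the controls and 66.7%, 57.1% and 71.4% in the IR libraries, without overlap (exact permutation p = 0.1).

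Among the other reads of pi-D10Wsu102e the plus strand, that of the host gene, held 26.6%, 24.3% and 21.8% in the controls and 31.7%, 34.6% and 36.5% in the IR libraries. At 15-qD1-4001 it held 40.8%, 37.8% and 43.4% against 47.3%, 48.9% and 44.4%. Neither pair of groups overlapped, and each exact permutation p was 0.1 (0.233 adjusted over the 14 measures of composition). Among those measures the groups were also apart for the tRNA shares of 9-qC-10667 and 15-qD1-4001, the Gly-b share and the Lys reads of 22 nt. Strand shares of other piRNA genes were not computed. At 9-qC-10667 it held 86.7%, 76.5% and 70.0% against 52.8%, 68.6% and 74.1%, lower on average in the IR libraries, with groups that overlapped (exact permutation p = 0.2). In reads, the minus strand of pi-D10Wsu102e had 130, 128 and 201 in the controls and 114, 136 and 80 in the IR libraries, and the plus strand 47, 41 and 56 against 53, 72 and 46.

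Other tRNAs were read as well. Matches to reference tRNA genes were counted over all reads of the files, including those of several piRNA genes. The mitochondrial leucine tRNA mt-Tl1 had 156 reads, with 22, 4 and 34 in the controls and 39, 24 and 33 in IR. That is more than the 88 tRNA reads of pi-D10Wsu102e, and no read of several piRNA genes held a family's bases. There were also 27 reads of the mitochondrial glycine tRNA mt-Tg, 11 of the alanine tRNA n-TAagc16 and 1 each of mt-Tn and mt-Tl2. Among the tested loci those whose log2 CPM over the 6 libraries was most like that of 9-qC-10667 were pi-Phf20 (Pearson r = 0.95), pi-Zfp652 (0.91) and 2-qE1-35981 (0.91). For 15-qD1-4001 they were pi-Phf20 (0.95), 9-qF4-150 (0.92) and 2-qE1-35981 (0.91), and for pi-D10Wsu102e pi-Il17rd (0.95), pi-Gabpb2 (0.89) and pi-Igf2bp1 (0.87). These are the highest of 100 loci over the same 6 libraries, given as a description without a test.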

How the data were processed

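The files hold copies per read sequence as raw counts and, as a further column, the number of places each sequence maps to, as deposited by the authors, with 1 line for each place on a piRNA cluster transcript. The build is mm10 per the submitters' processing notes, and libraries were size-selected for 18 to 50 bp RNA per the labels' protocols. The sources used here name no aligner, mismatch limit or filter.

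Copies were counted once per sequence and library for sequences of 1 piRNA gene. tRNA reads were found from the reads: the 12 bases before CCA behind a T-loop pattern at the 3 loci (2 copies or more), and 12 bases of the leading 15-qD1-4001 sequence. Members, lists and rules were chosen with earlier results of these data known. The named items are the 3 loci, the 5 most copied sequences of each, further sequences past the threshold, families with 20 or more copies at a locus, and the 3 loci most like each. Counts were fitted on whole tables with edgeR 4.0.16 (R 4.3.3; TMM, filterByExpr, quasi-likelihood F-test, Benjamini-Hochberg, adjusted p under 0.05) and DESeq2 1.42.0 as an alternative. SE is the log2 fold change divided by the root of F. Composition was compared by exact two-sided permutation over 20 regroupings. All 6 pairs of libraries within a group differed beyond sampling noise over loci (largest chi-square p = 1.08e-08). The fits were tested on simulated counts. The planned fit over all tRNA isotypes was limited to the sequences found, since most tRNA gene sequences were not in the reference used. Transcripts were placed on mm10 by matching reads to GENCODE vM21 exons and RefSeq promoter windows, and tRNA gene names and counts are from RefSeq.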

Additional observations from a re-analysis of the deposited data

How the results depend on the processing

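Depth limits all values: the tRNA reads of a locus number 7 to 186 per library. Same-numbered libraries did not deviate together over 103 loci (r = -0.19, 0.09 and 0.10), so the replicate numbers were not taken as pairs. With the replicate block, 5 loci passed in place of 8 (9-qC-10667 and 15-qD1-4001 at adjusted p = 0.0539 by edgeR), 7 source features in place of 9 and 8 sequences as before. In the tRNA family fit 3 features passed in place of 1, of which 1 was higher and 2 were lower in IR. Gly-a was then among those that passed (-0.84, adjusted p = 0.00665 by edgeR). Leaving out 1 library gave 3 to 15 loci, 6 to 17 source features, 6 to 13 sequences and 0 to 3 features of the tRNA family fit. It gave tRNA share differences of -16.7 to -12.8 points at 9-qC-10667, -31.8 to -24.2 at 15-qD1-4001 and 0.864 to 3.46 at pi-D10Wsu102e.

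With reads of 1 mapped place, 5 loci passed. With reads of 24 to 32 nt, edgeR called 0 loci (5 at unadjusted p under 0.05), 0 source features (5) and 0 sequences (8). The log2 fold change of 15-qD1-4001 was then 0.0989, and that of its other reads 0.0695. DESeq2, the file totals as library sizes and no filter each gave 2 features of the tRNA family fit. In its main setting that fit held only 5 tested features, among them the pooled other reads of the files. Of the 5, Lys passed (-1.77, adjusted p = 0.00594 by edgeR). Lys did not pass in it without control replicate 3 (0.0566) or without IR replicate 1 (0.0918). Gly-b had 0.16 in it with DESeq2, and -0.47 to 0.42 leaving out 1 library. The tRNA reads of pi-D10Wsu102e had -0.42 to 0.55 leaving out 1 library. Of 126 composition values under alternatives 120 kept their direction. Leaving out 1 library gave -10.3 to 1.09 points for Gly reads that end in CCA, -16.8 to 6.23 points for the Ile share and -0.787 to 1.5 nt for the mean length of other reads at 9-qC-10667. The Ile share was 0.093 points with 1 mapped place, and the mean length -0.006 nt with each sequence counted once. The cause was not tested. The family fit on reads of 24 to 32 nt was not run, as those reads hold too few tRNA sequences.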
